A study of Mus musculus with 12 samples.

Results

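The FOXO genes encode 4 transcription factors of the forkhead family in the mouse, Foxo1, Foxo3, Foxo4 and Foxo6, and were taken by gene name from the deposited expression tables. All 4 members were listed and passed the filter on low values in every comparison, among 13244 genes present in all 3 tables. RNA was sequenced from the tibialis anterior, a hindlimb muscle rich in fast fibres, of C57BL/6J mice. The KPC_UA group (n = 4) carried tumours of KPC cells, a line of mouse pancreatic cancer that was injected into the pancreas, and ate chow with added ursolic acid, a plant triterpenoid. The KPC group (n = 4) bore the same tumours and ate standard chow. The Sham group (n = 4) had no tumour and ate standard chow. The labels state neither age, sex, the amount of ursolic acid nor the time after injection, and the tumours came from a single cell line. They do not say that each sample is a different mouse either, so p-values reflect the spread between samples, which may be technical.

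FOXO proteins bind DNA through the forkhead domain and act mainly as activators of transcription. Insulin and IGF-1 hold them back: these hormones activate PI3K and AKT, AKT phosphorylates FOXO, and 14-3-3 proteins then keep it in the cytoplasm. When the signal falls, FOXO1, FOXO3 and FOXO4 enter the nucleus, and in skeletal muscle FOXO1 and FOXO3 are best known for switching on the ubiquitin ligases and autophagy genes of muscle wasting. FOXO6 is known mostly from brain and shuttles poorly between nucleus and cytoplasm. The tables measure mRNA, so the amount, phosphorylation and location of the proteins were not measured.

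The libraries held 22.31 to 31.97 M reads in listed genes. Values below are normalised reads, that is, reads divided by a size factor per library that puts all 12 libraries on a common scale. The summed level of 10 fibre markers, among them Ckm and Acta1, overlapped between the groups, at 4353290 to 5446880 normalised reads in KPC_UA, 4328970 to 5023010 in KPC and 4532370 to 5501580 in Sham. Of the 10, Acta1 (356690 to 498604 in KPC, against 517244 to 608113 in Sham) and Mylpf were lower in every KPC library than in Sham, and limma and DESeq2 called none. Of all genes, 19.1% separated in either direction between KPC and Sham. The KPC libraries lay far apart: on a first principal component with 54.7% of the variance, the KPC_UA libraries were at -24.5 to -0.983, KPC replicates 1 and 4 at 121 and 50.6, KPC replicates 2 and 3 at -8.55 and 11.98, and the Sham libraries at -32.6 to -27.0. Changes of Foxo1, Foxo3, Foxo6, Foxo6os and the lists of FOXO targets and upstream genes are therefore also given without KPC replicates 1 and 4. This alternative was chosen after the values were seen. For other forkhead genes, FOXO-modifying enzymes, cell markers and most single list members such values are not given, and their changes may rest on these libraries. Deviation from the median library also followed gene length across genes, with rank correlations of -0.619 in KPC_UA replicate 2 and -0.500 in Sham replicate 1 and between -0.324 and 0.330 in the others. Genes are not independent replicates, and the part of this length trend in the results was not tested.

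The members are spread over 4 chromosomes of GRCm38. Foxo1 (ENSMUSG00000044167) lies at chr3:52268336-52353221 on the plus strand, Foxo3 (ENSMUSG00000048756) at chr10:42181841-42276755 on the minus strand, Foxo4 (ENSMUSG00000042903) at chrX:101254528-101260873 on the plus strand, and Foxo6 (ENSMUSG00000052135) at chr4:120267079-120287349 on the minus strand. Their merged exons span 8665 bases in Foxo1, 7571 in Foxo3, 3485 in Foxo4 and 2615 in Foxo6. Beside Foxo6, on the opposite strand, lies Foxo6os (ENSMUSG00000084929, chr4:120291350-120303892), an antisense transcript whose gene body does not overlap that of Foxo6 in the annotation.

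The 4 members are most alike in the part of the coding sequence that specifies the forkhead DNA-binding domain. The 90 coding bases below, from GENCODE M21 transcripts, are shown because they are the stretch in which reads of one member could most easily be taken for another's. It starts at coding base 571 in Foxo1, 568 in Foxo3, 403 in Foxo4 and 364 in Foxo6, and capitals mark bases that differ from Foxo1.
Foxo1: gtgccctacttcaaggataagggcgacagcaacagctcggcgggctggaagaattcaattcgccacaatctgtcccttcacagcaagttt
Foxo3: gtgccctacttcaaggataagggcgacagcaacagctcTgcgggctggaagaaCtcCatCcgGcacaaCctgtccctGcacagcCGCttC
Foxo4: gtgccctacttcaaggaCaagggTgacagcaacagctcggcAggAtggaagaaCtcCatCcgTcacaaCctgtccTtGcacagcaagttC
Foxo6: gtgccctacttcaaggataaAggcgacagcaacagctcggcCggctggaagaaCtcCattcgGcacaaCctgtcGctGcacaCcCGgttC
Foxo3 matched Foxo1 at 79 of these 90 bases (87.8%), and Foxo4 and Foxo6 each matched it at 78 (86.7%). The longest run without a difference over the whole transcripts was 38 bases, between Foxo1 and Foxo3, and it lies inside the stretch shown. For every other pair the longest run was 17 to 21 bases. No 50-base word of Foxo3, Foxo4, Foxo6 or Foxo6os occurred in a transcript of another gene, and 6 of the 8616 words of Foxo1 did (0.0696%). Words of 50 bases thus tell the members apart.

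Foxo4 was the most abundant FOXO mRNA in every library, and Foxo6 was the member whose level differed most between the groups. Foxo4 had 5133, 5545, 6213 and 6591 normalised reads in the KPC_UA libraries, 6959, 6101, 6888 and 6723 in the KPC libraries, and 5320, 5737, 5477 and 5309 in the Sham libraries, in the order of replicates 1 to 4. These values span a narrow range, and the KPC libraries all lay above the Sham libraries. Foxo4 is regulated by AKT as Foxo1 and Foxo3 are. In bulk muscle, as here, fewer cells of a type and less RNA per cell cannot be told apart.

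Foxo1 had 437, 692, 1209 and 977 normalised reads in the KPC_UA libraries, 3655, 486, 1356 and 1912 in the KPC libraries, and 344, 400, 419 and 484 in the Sham libraries. KPC replicate 1 was the highest of all 12, whereas KPC replicate 2 was barely above the highest Sham library. The KPC_UA libraries overlapped both other groups.

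Foxo3 had 705, 584, 1396 and 817 normalised reads in the KPC_UA libraries, 4568, 865, 1571 and 1505 in the KPC libraries, and 441, 595, 508 and 633 in the Sham libraries. The order within the KPC group was like that of Foxo1, with replicate 1 far above and replicate 2 below the others. KPC and Sham did not overlap, and KPC_UA overlapped both.

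Foxo6 had 155, 208, 91.1 and 131 normalised reads in the KPC_UA libraries, 6.59, 83.1, 44.3 and 9.95 in the KPC libraries, and 335, 268, 278 and 278 in the Sham libraries. The 3 groups did not overlap: every KPC library was below every KPC_UA library, and every KPC_UA library was below every Sham library. The KPC values rest on few reads, 5, 74, 40 and 13, against 101 to 223 reads in KPC_UA and 254 to 324 in Sham. KPC replicates 1 and 4, where Foxo1 was highest, held the lowest Foxo6 values, and KPC replicate 2, where Foxo1 was lowest, held the highest of the KPC group.

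**Figure D1:**
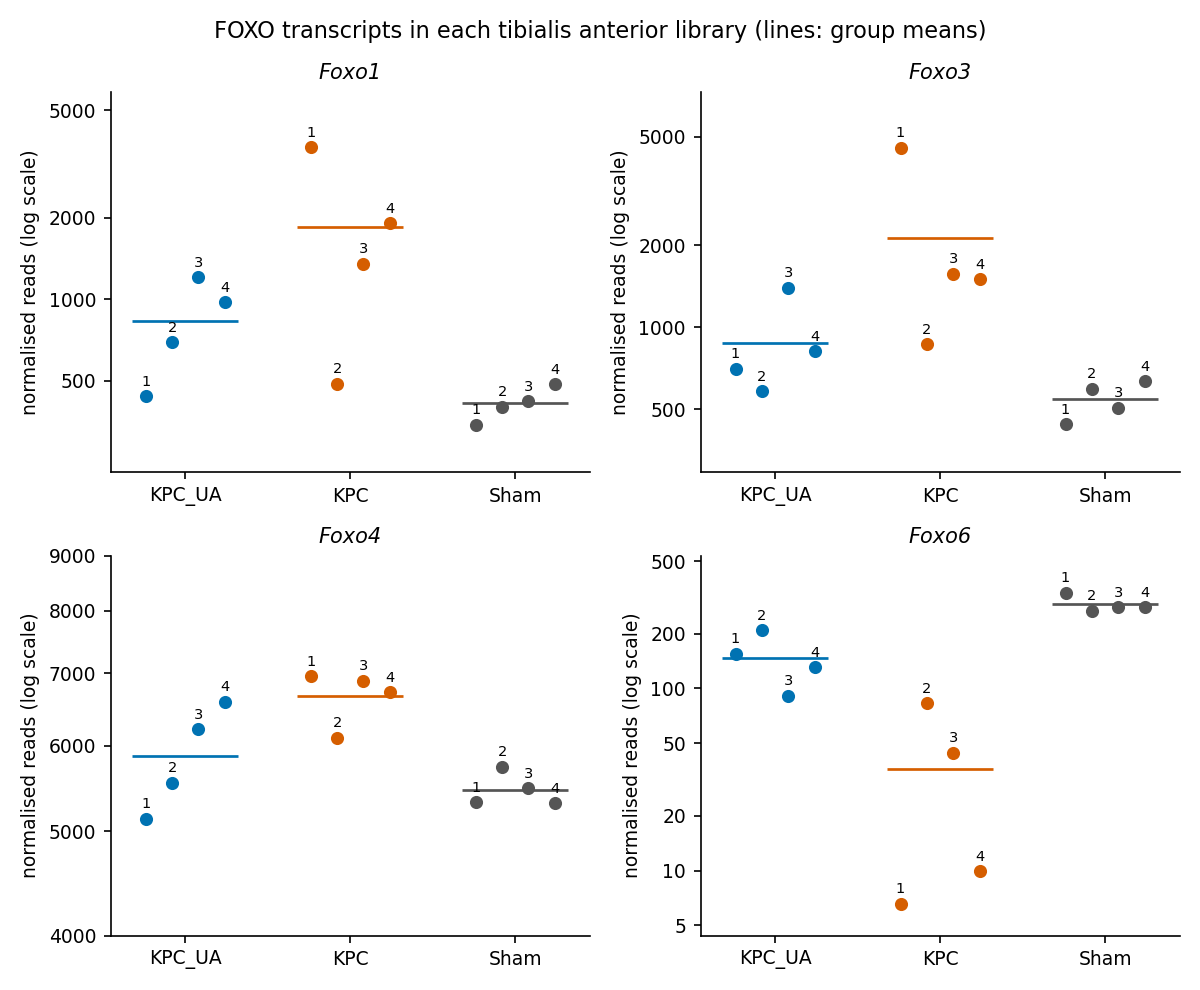
Normalised reads of Foxo1, Foxo3, Foxo4 and Foxo6 (log scale, one panel a gene) in the 4 libraries each of KPC_UA, KPC and Sham. Points are libraries with their replicate numbers and lines are group means. Foxo6 falls into 3 separate bands, KPC_UA at 91.1 to 208, KPC at 6.59 to 83.1 and Sham at 268 to 335, while Foxo1 and Foxo3 spread widely in KPC.

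The spread between libraries of a group differed by gene. In KPC_UA the coefficient of variation was 40.6% for Foxo1, 41.1% for Foxo3, 11.2% for Foxo4 and 33.5% for Foxo6 (n = 4). In KPC it was 72.2%, 77.9%, 5.86% and 99.3% for the same genes, against 14.1%, 15.9%, 3.65% and 10.6% in Sham. Foxo4 was thus the steadiest member within each of the 3 groups.

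Per kilobase of exon, which allows genes of unequal length to be compared, Foxo4 reached 1685 ± 188 normalised reads in KPC_UA, 1913 ± 112 in KPC and 1567 ± 57.3 in Sham (SD, n = 4 each). That level lies at the 96.2, 96.3 and 96.0 percentile of all genes in those groups. Foxo3 reached 116 ± 47.6 per kilobase in KPC_UA, 281 ± 219 in KPC and 71.9 ± 11.4 in Sham. Foxo1 followed, with 95.6 ± 38.8 in KPC_UA, 214 ± 154 in KPC and 47.5 ± 6.69 in Sham. Foxo6 had 56.0 ± 18.7 in KPC_UA, 13.8 ± 13.7 in KPC and 111 ± 11.7 in Sham. By group means the order from high to low was Foxo4, Foxo6, Foxo3, Foxo1 in Sham and Foxo4, Foxo3, Foxo1, Foxo6 in both tumour groups. In Sham no pair of members overlapped. Foxo1 and Foxo3 did not separate beyond their spread in KPC_UA or in KPC. Foxo6 overlapped both of them in KPC_UA, where replicate 2 had 79.6 per kilobase for Foxo6 and 77.1 for Foxo3. Replicate 2 is the library with the rank correlation of -0.619 with gene length. In the other KPC_UA libraries Foxo6 had 34.8 to 59.2 per kilobase and Foxo3 93.1 to 184.

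Foxo4 made up 83.2 to 87.9% of the summed FOXO reads per kilobase in KPC_UA, 66.0 to 89.6% in KPC and 86.1 to 87.9% in Sham. Foxo6 made up 1.63 to 4.36% in KPC_UA, 0.0833 to 1.63% in KPC and 5.46 to 7.32% in Sham. The ratio of Foxo1 to Foxo6 reads was taken within a library, which frees it of the scaling but not of the length trend. It was 2.82, 3.32, 13.3 and 7.45 in KPC_UA, 555, 5.85, 30.6 and 192 in KPC, and 1.02, 1.49, 1.50 and 1.74 in Sham. Each KPC_UA ratio lay above each Sham ratio, and KPC replicate 2 fell within the KPC_UA range.

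**Figure D2:**
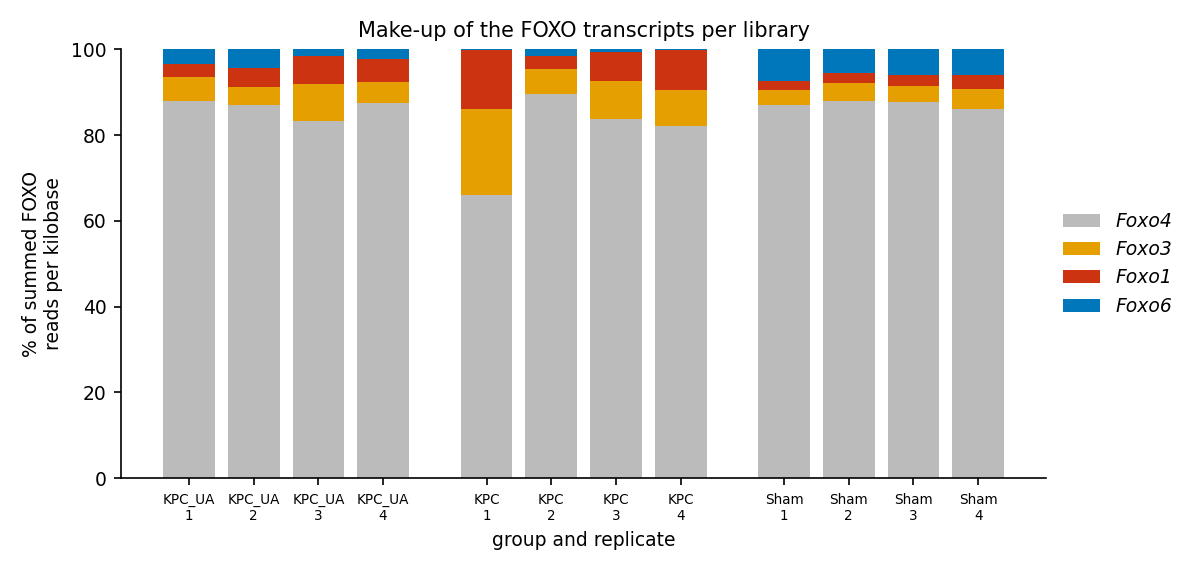
Share of each FOXO gene in the summed FOXO reads per kilobase of exon (%), one stacked bar for each of the 12 libraries, grouped as KPC_UA, KPC and Sham. Foxo4 fills most of every bar, from 66.0% in KPC replicate 1 upwards, and the Foxo6 segment of 5.46 to 7.32% in Sham is close to invisible in KPC replicates 1 and 4.

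KPC against Sham asks how the tumour alters the muscle under standard chow. Foxo6 fell by 3.61 on the log2 scale in KPC muscle (SE 0.66, 95% interval -5.09 to -2.14, n = 4 each, adjusted p = 0.0398 by limma), which is 12.2-fold lower. The ratio of the group means was smaller, 8.05-fold, and DESeq2 and edgeR gave log2 changes of -3.01 and -3.03. It was the only FOXO gene called by limma, and 112 of 13542 genes were called lower (0.827%). The call rests on the full set of libraries: without any single Sham library, or without KPC replicate 3 or 4, the log2 change stayed between -3.92 and -3.24 with adjusted p from 0.0826 to 0.151 by limma. In each of these 6 fits limma called no gene at all, with 2277 to 3480 genes at an unadjusted p under 0.05. Without both KPC replicates 1 and 4 the change was -2.23 with adjusted p = 0.00238 by limma.

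Foxo1 was 1.84 higher on the log2 scale in KPC muscle (SE 0.49, 95% interval 0.74 to 2.93) and Foxo3 was 1.69 higher (SE 0.42, 95% interval 0.77 to 2.62). Neither passed limma's threshold, with adjusted p = 0.0901 for Foxo1 and 0.0780 for Foxo3. DESeq2 on the recovered reads called both higher, with adjusted p = 0.000331 and 0.000614, and called Foxo6 lower with adjusted p = 5.27e-05. DESeq2 called 6.81% of 13461 genes higher and 5.02% lower. Without KPC replicates 1 and 4, Foxo1 was 0.99 higher (adjusted p = 0.173 by limma) and Foxo3 1.11 higher (adjusted p = 0.0232 by limma). DESeq2 called both without these libraries, with log2 changes of 1.16 each and adjusted p = 0.00190 for Foxo1 and 3.45e-05 for Foxo3.

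Foxo4 differed least, 0.28 higher on the log2 scale in KPC muscle (SE 0.14, 95% interval -0.029 to 0.60, adjusted p = 0.234 by limma and 0.106 by DESeq2). That interval leaves room for an increase of up to 0.60. The KPC and Sham libraries did not overlap for any of the 4 members, with Foxo1, Foxo3 and Foxo4 higher and Foxo6 lower in KPC. A full separation gives p = 0.0286 in a two-sided exact permutation test of 4 against 4, which is the smallest the design allows. Separation in one direction or the other was common here, at 19.1% of the 13542 genes.

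Markers of other cells moved between these groups too. Of all genes, limma called 0.354% higher and 0.827% lower here, and DESeq2 6.81% higher and 5.02% lower. Of 6 satellite cell markers, 5 were tested and their changes were mixed, with 2 of 5 above 0 and a median log2 change of -0.17 in KPC against Sham. Pax7, the defining marker, had 7.90, 65.1, 17.7 and 23.0 normalised reads in KPC and 42.4, 61.7, 80.0 and 59.3 in Sham. Sdc4, a syndecan that other cells also express, had 3292, 416, 501 and 821 in KPC and 484, 451, 396 and 366 in Sham, and was highest in the libraries with the highest Foxo1. The 6 listed of 7 tendon markers, without Mkx, summed to 387 to 1413 in KPC, against 2181 to 3100 in Sham, and 2 of the 6 were called lower by limma. The 10 fibroblast markers summed to 9831 to 15453 in KPC, against 18274 to 25722 in Sham, with 4 of 10 called lower. Of 8 adipocyte markers, 7 were tested, of which limma called 3 lower and DESeq2 5 lower (median log2 change -1.83). The 6 erythroid markers summed to 2789 to 10659 in KPC, against 749 to 3445 in Sham, and DESeq2 called 4 of them higher and limma none (median log2 change 1.84). The 10 endothelial markers had sums that overlapped, at 7559 to 8667 in KPC and 7424 to 9024 in Sham. Single markers separated in both directions, 3 higher and 2 lower in every KPC library, where 19.1% of all genes separated in either direction. Cldn5 had 312 to 710 normalised reads in KPC, against 129 to 285 in Sham, and Kdr had 340 to 1009 in KPC, against 1044 to 1472 in Sham. DESeq2 called 2 endothelial markers higher and 1 lower, and limma none. Neither tool called any of the 10 macrophage markers. In KPC_UA against KPC, 6 of 6 tendon, 9 of 10 fibroblast and 5 of 6 adipocyte marker changes were above 0. In KPC_UA against Sham, 0 of 6, 1 of 10 and 1 of 7 were. Most of these markers thus followed Foxo6 in direction, lowest in KPC and highest in Sham. The KPC_UA sums overlapped both other groups, at 570 to 2262 for tendon and 13483 to 18701 for fibroblast markers. Erythroid markers went the other way, with 1 of 6 and 6 of 6 changes above 0. The part of these cells in the FOXO results was not tested.

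**Figure D3:**
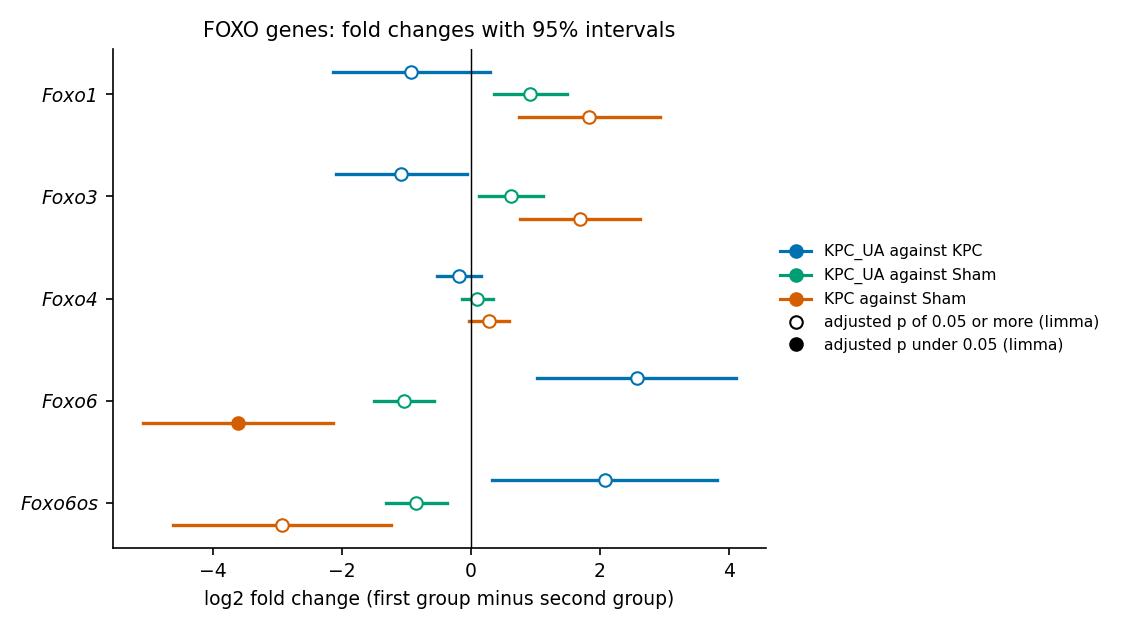
Log2 fold change of the 4 FOXO genes and Foxo6os (points) with 95% intervals (lines) for KPC_UA against KPC, KPC_UA against Sham and KPC against Sham. Filled points have an adjusted p under 0.05 by limma. Foxo6 in KPC against Sham, at -3.61, is the single filled point, and the intervals of Foxo4 all include 0.

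KPC_UA against KPC asks what ursolic acid chow changes in tumour-bearing mice. No FOXO gene was called: limma called 0 of 13522 genes (0%), with 1714 at an unadjusted p under 0.05, edgeR called 0, and DESeq2 called 0.201% of 13448 genes higher and 0.543% lower, none of them a FOXO gene. Foxo6 was 2.57 higher on the log2 scale in KPC_UA muscle (SE 0.69, 95% interval 1.03 to 4.12, adjusted p = 0.382 by limma and 0.0855 by DESeq2). The KPC_UA and KPC libraries of Foxo6 did not overlap (exact permutation p = 0.0286), as for 3.78% of genes that were higher in every KPC_UA library. Its lowest KPC_UA library had 91.1 normalised reads and its highest KPC library 83.1. Without KPC replicates 1 and 4 the log2 difference was 1.19 (adjusted p = 0.399 by limma).

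Foxo1 differed by -0.92 on the log2 scale (95% interval -2.13 to 0.29, adjusted p = 0.418 by limma), and the libraries overlapped (exact permutation p = 0.229). Foxo3 differed by -1.08 (95% interval -2.09 to -0.057, adjusted p = 0.382 by limma, exact permutation p = 0.0571). Foxo4 differed by -0.19 (95% interval -0.53 to 0.15, adjusted p = 0.532 by limma). The share of genes lower in every KPC_UA library was 4.14%, and no FOXO gene was among them. Most of the Foxo1 difference came with KPC replicates 1 and 4: without them it was -0.073, and that of Foxo3 was -0.50.

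KPC_UA against Sham asks how far muscle of tumour-bearing mice on ursolic acid differs from tumour-free muscle. Foxo6 had a log2 change of -1.03 in KPC_UA (SE 0.21, 95% interval -1.50 to -0.56), without a call by limma (adjusted p = 0.230) and with one by DESeq2 (adjusted p = 0.00663). The libraries did not overlap (exact permutation p = 0.0286), as for 2.02% of genes lower and 2.08% higher in every KPC_UA library. Foxo1 was 0.93 higher (SE 0.26, 95% interval 0.36 to 1.49), with adjusted p = 0.350 by limma and 0.0193 by DESeq2, and KPC_UA replicate 1 lay within the Sham range. Foxo3 differed by 0.63 (adjusted p = 0.484 by limma and 0.201 by DESeq2) and Foxo4 by 0.10 (adjusted p = 0.929 by limma). Limma called 0 of 13567 genes here (0%), with 1077 at an unadjusted p under 0.05, edgeR called 0, and DESeq2 called 0.369% of 13553 genes higher and 0.303% lower.

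Foxo6 was thus lowest in KPC, intermediate in KPC_UA and highest in Sham without overlap at either step. Of 13223 genes tested in all 3 comparisons, 34 had that order in every library (0.257%), and 23 had the reverse order (0.174%). The comparisons share groups, so the steps are not independent of each other.

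Foxo6os, the antisense neighbour, followed the same order by group means. It had 248, 302, 176 and 142 normalised reads in KPC_UA, 13.2, 211, 108 and 17.6 in KPC, and 448, 302, 401 and 363 in Sham. KPC replicates 1 and 4 were again the lowest, and KPC and KPC_UA overlapped. Its log2 change was -2.92 in KPC against Sham (95% interval -4.61 to -1.23, adjusted p = 0.0856 by limma and 0.0206 by DESeq2), one of 2.08 in KPC_UA against KPC (adjusted p = 0.382 by limma), and one of -0.84 in KPC_UA against Sham (adjusted p = 0.315 by limma). Without KPC replicates 1 and 4, Foxo6os was at -1.31 in KPC against Sham, then with a call (adjusted p = 0.0167 by limma), and at 0.46 in KPC_UA against KPC (adjusted p = 0.606 by limma). The ratio of Foxo6os to Foxo6 reads was 1.08 to 1.93 in KPC_UA, 1.77 to 2.54 in KPC and 1.13 to 1.44 in Sham. Whether reads were counted by strand is not stated in the labels.

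**Figure D4:**
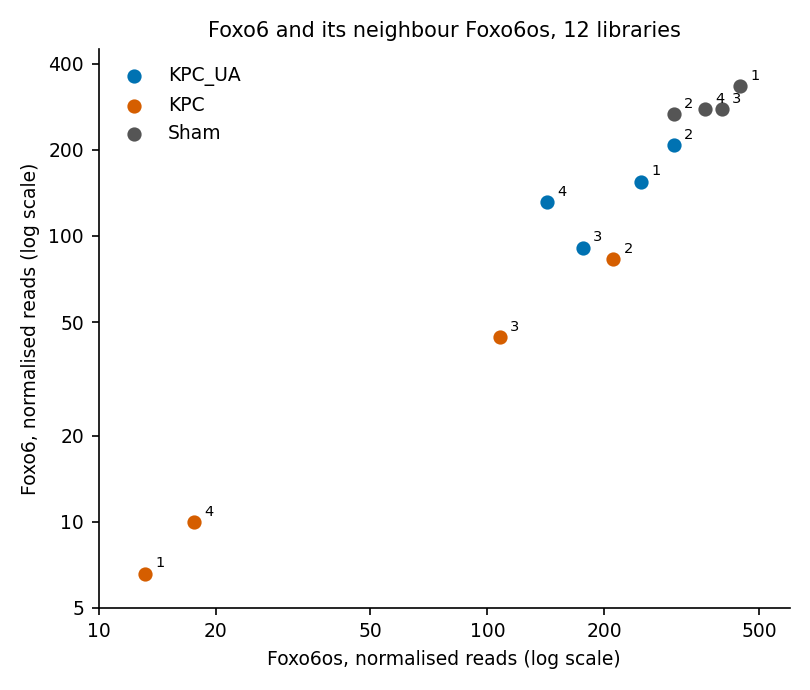
Normalised reads of Foxo6 (vertical, log scale) and Foxo6os (horizontal, log scale) in 12 libraries, coloured by group and numbered by replicate. KPC replicates 1 and 4 sit at the lower left, at 6.59 and 9.95 for Foxo6, and the Sham libraries at the upper right, at 268 to 335.

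Over the 12 libraries, log2 values of Foxo1 and Foxo3 had a Pearson r of 0.938 with each other, and each ran against Foxo6, with r of -0.914 for Foxo1 and -0.923 for Foxo3. These coefficients describe libraries of 3 groups that also differ in mean, with KPC replicates 1 and 4 at the far end, and no p is given. Foxo4 had r of 0.865 with Foxo1, 0.817 with Foxo3 and -0.820 with Foxo6.

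Among 10089 genes with a mean of at least 50, those most like Foxo1 over the 12 libraries were Ppard (r = 0.969), a nuclear receptor for fatty acids, then Wbp1l, Trip10, Fkbp5 (r = 0.966), a co-chaperone of steroid receptors, and Dedd2. Those most like Foxo3 were Acacb (r = 0.990), an acetyl-CoA carboxylase that restrains fatty acid oxidation, Lpin1, a phosphatidate phosphatase, Tacc2, Ap3b1 and Rbl2 (r = 0.983), a pocket protein that is itself on the list of FOXO targets. Those most like Foxo4 were Stab2 (r = 0.948), an endothelial scavenger receptor, Cbx7, Bckdhb, Odf3l2 and Wnk2 (r = 0.917). Those most like Foxo6 were Smtn (r = 0.987), a cytoskeletal protein, Calm2, a calmodulin gene, Plekha2, Nrep and Foxo6os (r = 0.980). Smtn averaged 1560 normalised reads in KPC_UA, 887 in KPC and 1815 in Sham, and Fkbp5 averaged 2090 in KPC_UA, 6835 in KPC and 951 in Sham.

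Foxo1 and Foxo3 varied together, so the sequence just before each transcription start is shown for both. The windows hold 190 bases from RefSeq on GRCm38.p6, from 250 to 61 bases before the RefSeq start, at chr3:52268087-52268276 (plus strand) for Foxo1 and chr10:42276756-42276945 (minus strand) for Foxo3. Capitals mark GC boxes, GGGCGG on either strand, the core of the site bound by Sp1.
Foxo1: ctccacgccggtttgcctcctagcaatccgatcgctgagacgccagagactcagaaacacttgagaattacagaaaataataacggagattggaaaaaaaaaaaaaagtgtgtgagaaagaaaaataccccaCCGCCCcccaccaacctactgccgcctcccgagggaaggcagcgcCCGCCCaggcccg
Foxo3: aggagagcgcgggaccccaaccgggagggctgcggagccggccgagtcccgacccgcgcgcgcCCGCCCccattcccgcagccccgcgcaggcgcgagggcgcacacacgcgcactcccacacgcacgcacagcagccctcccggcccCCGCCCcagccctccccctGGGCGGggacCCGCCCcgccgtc
The Foxo1 window held 2 GC boxes and was 53.2% G or C, and the Foxo3 window held 4 and was 81.6% G or C. A GC box occurred in 22.8% of 32851 windows of the same length, whose median was 51.6% G or C. Neither window held the FOXO site TGTTTAC (in 2.49% of windows), the glucocorticoid receptor core TGTTCT (12.7%), the STAT site TTCNNNGAA (5.51%) or the cAMP response core TGACG (11.7%), on either strand. A match or its lack describes these letters in these windows only.

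Of 15 upstream genes of the insulin and IGF-1 pathway, limma called 1 in KPC against Sham, Igf1, where it called 0.827% of all genes lower. Irs2 and Insr, among the 15, are also on the list of FOXO targets below, so the lists are not independent. Igf1, the growth factor whose signal restrains FOXO proteins, had 275, 131, 83.9 and 87.8 normalised reads in KPC_UA, 69.8, 101, 51.0 and 62.0 in KPC, and 238, 187, 263 and 227 in Sham. Each KPC library was below each Sham library, and Igf1 fell by 1.71 on the log2 scale in KPC muscle relative to Sham (SE 0.24, adjusted p = 0.0255 by limma). Limma did not call Igf1 with replicate number as a block, where it called 66 genes. It did not call Igf1 without any single Sham library, or without KPC replicate 3 or 4, where it called no gene at all. Pik3r1, a regulatory subunit of PI3K, was 1.65 higher (adjusted p = 0.0721 by limma) and Irs2, an adaptor of the insulin receptor, 1.74 higher (adjusted p = 0.116 by limma). DESeq2 called both of these higher and Igf1 lower, where it called 6.81% of all genes higher and 5.02% lower. The median log2 change of the 15 was 0.48, against 0.0075 for all genes. Without KPC replicates 1 and 4 it was 0.19. Limma then called Pik3r1 higher beside Igf1 lower, where it called 246 higher and 357 lower of 13380 genes.

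In KPC_UA against KPC, limma called 0 of the 15 and edgeR called 0. DESeq2 called Irs2 lower (log2 change -1.60 by limma, adjusted p = 0.0235 by DESeq2), where it called 0.543% of all genes lower. Igf1r, the IGF-1 receptor, differed by -0.85 and Igf1 by 0.89, both with adjusted p = 0.382 by limma. The median log2 difference of the 15 was -0.50, and -0.21 without KPC replicates 1 and 4. In KPC_UA against Sham, DESeq2 called 1 of the 15 lower, where it called 0.303% of all genes lower. This was Sgk1, a kinase that also phosphorylates FOXO proteins (log2 change -0.51 by limma, adjusted p = 0.0385 by DESeq2). Irs1 differed by -0.97 and Igf1 by -0.82.

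The 18 enzymes and partners that modify FOXO proteins gave no call by limma, edgeR or DESeq2 in KPC against Sham. In every KPC library 4 of the 18 were higher than in Sham and 0 lower, where 19.1% of all genes separated in either direction. By limma, 3312 of all 13542 genes had an unadjusted p under 0.05, and 3 of the 18 did. These were Sirt1, a deacetylase, 0.78 higher on the log2 scale, Smad3, the TGF-beta mediator, at -1.42, and Crebbp, an acetyltransferase, 0.55 higher. Of the 18 log2 changes, 9 were above 0. Sirt1 differed by -0.75 and Crebbp by -0.52 in KPC_UA against KPC, again without a call, and Smad3 by 1.12. In KPC_UA against Sham, Smad3 differed by -0.29, Ywhaz, a 14-3-3 gene, by 0.11 and Stk4 by -0.17.

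Of 12 other forkhead genes listed, limma called none in any comparison. DESeq2 called Foxk1, known as a repressor of autophagy genes, 1.01 higher on the log2 scale in KPC than in Sham by limma (adjusted p = 0.0244 by DESeq2), and Foxs1 lower, at -2.09 (adjusted p = 0.00617 by DESeq2). These are 2 of 12, where DESeq2 called 6.81% of all genes higher and 5.02% lower. Foxn2 differed by 0.71 without a call. In KPC_UA against KPC the 3 smallest p were those of Foxk1 at -0.87, Foxn2 at -0.73 and Foxj2 at -0.43, all without a call. In KPC_UA against Sham they were those of Foxs1 at -0.67, Foxk2 at -0.13 and Foxd3 at -0.22. In each comparison the log2 change of Foxo6 was larger in size than that of every other forkhead gene tested, 12 in the comparisons with Sham and 11 in KPC_UA against KPC.

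The 30 known FOXO targets were mostly higher in KPC muscle than in Sham muscle. Limma called 4 higher, where it called 0.354% of all genes higher, and none lower. The 4 were Fbxo32, the gene of the atrogin-1 ubiquitin ligase, Pdk4, which restrains pyruvate oxidation, Cat, which encodes catalase, and Gadd45a, a stress-response gene. DESeq2 called 19 higher, where it called 6.81% of all genes higher, and none lower. In all, 26 of 30 log2 changes were above 0, against 50.5% of all genes. In every KPC library 22 targets were higher and 1, Bcl6, lower than in Sham, where 19.1% of all genes separated in either direction. Bcl6 is a transcriptional repressor and was named after its value was seen. The median log2 change was 1.21, against 0.0075 for all genes. Without KPC replicates 1 and 4 it was 0.60. Limma then called 13 higher and 1 lower, where it called 246 higher and 357 lower of 13380 genes. DESeq2 called 18 higher and 1 lower, where it called 510 higher and 568 lower of 13371 genes. Without any single Sham library, or without KPC replicate 3 or 4, limma called none of the 30 and no other gene either. Without KPC replicate 2 it called 18 higher, where it called 603 higher and 749 lower of 13520 genes. The targets were taken as known from the literature on FOXO, and other factors also act on many of them.

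Among the ubiquitin ligases, all 5 were higher in every KPC library than in Sham, where 19.1% of all genes separated in either direction. Fbxo32 had 8185, 14741, 33644 and 18391 normalised reads in KPC_UA, 185316, 25653, 41563 and 90629 in KPC, and 7880, 9276, 12210 and 10907 in Sham. The KPC libraries had the same rank order for Fbxo32 as for Foxo1, which is also their order on the first principal component of all genes. Fbxo32 was 2.71 higher on the log2 scale in KPC than in Sham (SE 0.51, adjusted p = 0.0432 by limma). Trim63, which encodes MuRF1, was 3.05 higher (adjusted p = 0.0809 by limma) and Fbxo31 1.27 higher (adjusted p = 0.0901 by limma). Of the 8 autophagy genes, 6 were higher in every KPC library, beside the same 19.1% of all genes. Gabarapl1, an ATG8 family member, was 2.16 higher (adjusted p = 0.105 by limma), Map1lc3b, which encodes LC3B, 1.15 higher (adjusted p = 0.104) and Ctsl, a lysosomal protease, 1.21 higher (adjusted p = 0.127).

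Pdk4 led the 5 targets of metabolism and insulin signalling, 3.09 higher on the log2 scale in KPC than in Sham (SE 0.54, adjusted p = 0.0379 by limma). Lpl, a triglyceride lipase, was 1.29 higher (adjusted p = 0.0740) and Eif4ebp1, an inhibitor of translation initiation, 2.29 higher (adjusted p = 0.0999). In the group of cell cycle and stress, Cat was 1.50 higher (SE 0.25, adjusted p = 0.0371 by limma), Gadd45a 2.19 higher (SE 0.43, adjusted p = 0.0454 by limma) and Sesn1, a stress-induced inhibitor of mTORC1, 2.84 higher (adjusted p = 0.0702). This group was the least uniform, with 8 of 12 changes above 0.

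In KPC_UA against KPC, limma called 0 of the 30 targets, edgeR called 0, and DESeq2 called 7 lower, where it called 0.543% of all genes lower, among them Cat, Fbxo32, Gabarapl1, Gadd45a, Irs2 and Trim63. The median log2 difference was -0.94, against -0.0037 for all genes, with 4 of 30 above 0. Cat had the smallest p, differing by -1.09 without overlap (adjusted p = 0.382 by limma and 0.00794 by DESeq2). Without KPC replicates 1 and 4 the median was -0.39 and DESeq2 called 1, Cat, where it called 40 of 13379 genes lower. Pdk4 differed by -2.48, Trim63 by -2.51 and Fbxo32 by -1.97, each with libraries that overlapped and adjusted p = 0.382 by limma. In every KPC_UA library 6 targets were lower and 1 higher than in KPC, the 6 including Pik3c3 at -0.56 and Lpl at -0.61. Over all genes, 4.14% were lower and 3.78% higher in every KPC_UA library.

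In KPC_UA against Sham the targets lay closer to 0, with a median log2 difference of 0.26, against 0.0089 for all genes, and 25 of 30 above 0. Limma and edgeR called none. DESeq2 called Gadd45a higher (log2 change 0.75 by limma, adjusted p = 0.0385 by DESeq2), where it called 0.369% of all genes higher. Gabarapl1 at 0.45, Bnip3 at 0.34, Sesn1 at 0.84 and Cdkn1a at 0.77 were the 4 targets that were higher in every KPC_UA library. Of all genes, 2.08% were. Fbxo32 differed by 0.74 and Pdk4 by 0.62, with overlap. The comparisons share groups, so the medians of the 3 comparisons are not independent of each other.

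**Figure D5:**
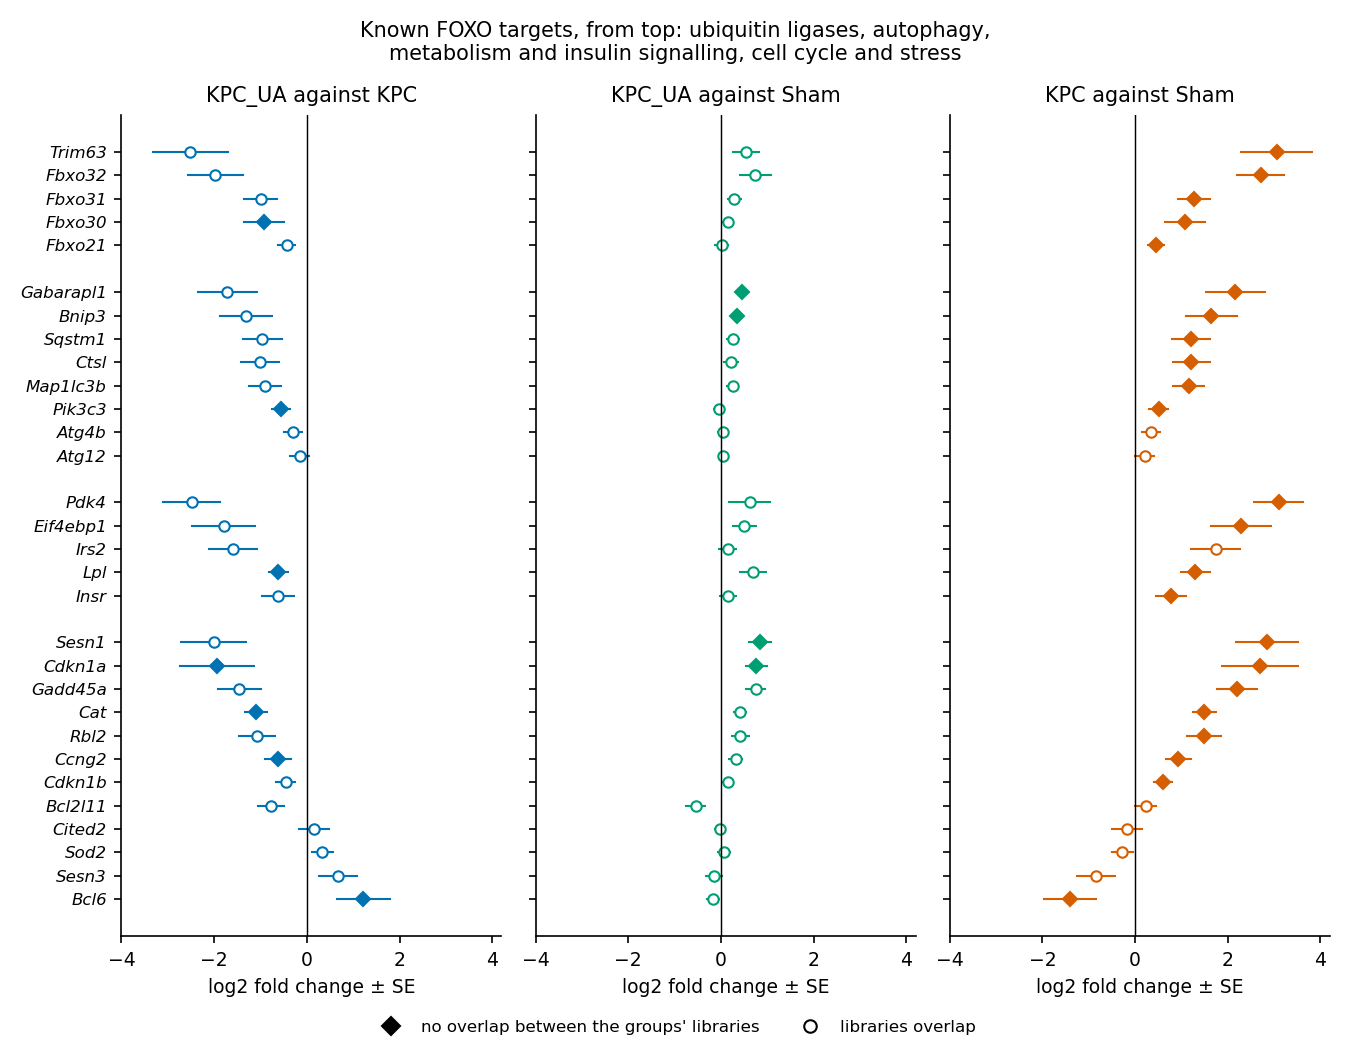
Log2 fold change ± SE (horizontal) of 30 known FOXO targets, in 4 groups from top to bottom, for KPC_UA against KPC, KPC_UA against Sham and KPC against Sham. Filled diamonds mark genes whose libraries do not overlap between the groups compared, 22 higher and 1 lower in KPC against Sham.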

How the data were processed

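RNA of 12 tibialis anterior samples, 4 in each group, was sequenced. The submitters' processing notes name GRCm38, Subread 1.5.2, featureCounts and bcl2fastq 2.17. The aligner, the annotation and strand use were not given in the sources used here. In 3 pairwise tables the authors deposited, per the file headers, a normalised signal for each library, log2 fold changes and p-values. Dividing each column by its smallest step gave whole reads for 100% of values (tolerance 0.01), so the deposited signal is read counts over a size factor per table. Reads in listed genes numbered 22.31 to 31.97 M per library, and intervals cover the spread between samples.

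Values printed per library use median-of-ratios factors over the 13244 genes in all 3 tables. Tests used each table's own values with limma 3.58.1 (R 4.3.3), two-sided (trend and robust options on), applied to log2(value + 1) where a gene's mean was at least 10, and Benjamini-Hochberg adjusted p under 0.05 over all genes. Fold changes on that scale understate the change of low genes. edgeR 4.0.16 and DESeq2 1.42.0 ran on the recovered reads as alternatives, and all 3 tools were tested on simulated data. The simulation used the same spread setting for all genes and groups, so it does not cover the wide spread within KPC. Where DESeq2 gave no adjusted p, none was used. Coordinates and exon lengths come from GENCODE M21 on GRCm38, counted from 1, and promoters from RefSeq. Of the 5 genes matched, Foxo1, Foxo3 and Foxo6os had a promoter entry.

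Genes named are the 4 FOXO genes, Foxo6os, other forkhead genes and list members called by limma or with the 3 smallest p, and the 5 genes most like each FOXO gene by Pearson r over 12 samples, skipping predicted genes and pseudogenes. Members, lists and rules were chosen with earlier results of these data known. Other settings were pseudocounts of 0.5 and 5, no filter, TMM, a fit over all 12 samples, a replicate block and each library left out. No sample was left out of the main fits.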

Additional observations from a re-analysis of the deposited data

Results flagged for a closer look

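Of 15 sets of 4 libraries checked, for the 4 FOXO genes and Foxo6os in 3 groups, 1 held a library that stood apart from the other 3. Foxo6 in Sham replicate 1 had 335 normalised reads, against 268 to 278 in the other Sham libraries, and its gap to the nearest of them was 0.839 of the range of the group, above Dixon's 95% limit for 4 values. Chance gives about 1 such flag in 20 sets. Sham replicate 1 also had a rank correlation of -0.500 with gene length. The longer Foxo1 and Foxo3 had their lowest Sham values in it, 344 and 441. The part of the length trend in this flag was not tested. Without that library the log2 change of Foxo6 in KPC against Sham was -3.54, with adjusted p = 0.131 by limma.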

How the results depend on the processing

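The 4 FOXO genes kept their direction under every setting run in all 3 comparisons, but the calls moved with the tool and with single libraries. In KPC against Sham, 3 of 4 FOXO genes were called by DESeq2 and by limma over all 12 samples, 2 by limma without KPC replicates 1 and 4, and 3 by DESeq2 without them, against 1 in the fit reported, and 0 to 3 with each library left out. The log2 change of Foxo1 was 2.16 by DESeq2 and 1.84 by limma over all 12 samples. Without both libraries it was 1.16 by DESeq2 and 0.99 by limma, and it was 1.40 to 2.37 with each library left out. The log2 change of Foxo3 was 1.96, 1.70, 1.16 and 1.11 under the same settings, and 1.23 to 2.03 with each library left out. That of Foxo6 was -3.01 by DESeq2, -3.03 by edgeR and -4.22 to -3.06 with each library left out, with adjusted p from 0.00750 to 0.151 by limma. Without both libraries it was smaller in size, -2.23 by limma and -2.18 by DESeq2. By DESeq2, Foxo1 and Foxo6 were called in KPC_UA against Sham (1.02 and -0.98, so 2 of 4).

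Genes called in KPC against Sham numbered 160, against 1593 by DESeq2, 1045 by limma over all 12 samples, 603 by limma and 1078 by DESeq2 without KPC replicates 1 and 4, and 0 to 1352 with each library left out. FOXO targets called there numbered 4, against 19 by DESeq2, 16 by limma over all 12 samples, 14 by limma and 19 by DESeq2 without these libraries, and 0 to 18 with each library left out. In KPC_UA against KPC, 0 genes were called, against 100 by DESeq2, 66 by DESeq2 and 2 by limma without KPC replicates 1 and 4, and 0 to 3 with each library left out, and FOXO targets numbered 7 by DESeq2 and 1 without these libraries. In KPC_UA against Sham DESeq2 called 91 genes and 1 target, and 0 to 4 genes were called with each library left out. The cause was not tested.

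With a replicate block, Foxo6 stayed called in KPC against Sham (-3.61, adjusted p = 0.0478 by limma), and 66 genes were called in place of 160. Deviations of samples with the same number correlated at -0.279 to 0.140. The labels do not say whether the numbers pair the samples. These correlations cannot settle it, because samples with different numbers were not set beside them. Per kilobase over the longest transcript in place of merged exons, Foxo4 was at 2109 in KPC and 1727 in Sham. Few reads limit Foxo6 in KPC, 5 to 74 a library.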
